A study of Mus musculus with 4 samples.

Results

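The Tdpoz cluster is a run of related genes on mouse chromosome 3, some of them near-identical copies, and 10 of its copies are described here: Tdpoz3, Tdpoz4, Gm4858, Gm9113, Gm9121, Gm9124, Gm9131, Gm5286, Gm4982 and Gm4778. They were taken by gene symbol from 24190 listed symbols. They were chosen by their higher values in GFP-positive cells of these same libraries, so that contrast is given for them as a description with no test. Expression was measured by sequencing polyadenylated RNA from E14Tg2a (ES-E14TG2a), a male mouse embryonic stem cell line. The cells were grown in serum-free N2B27-based medium with the MEK inhibitor PD0325901 and the GSK3β inhibitor CHIR99021, and this was shared by all 4 libraries. One line carried an integrated Zscan4c promoter that drives GFP (the GFP line), and the other carried the same promoter driving a GFP-Zscan4c fusion protein (the fusion line). Both lines are clonal, per the series' design text, and each was sorted into GFP-negative (GFP-) cells, labelled pluripotent, and GFP-positive (GFP+) cells, labelled 2C-like. Each population is 1 library, so there is no replicate, no spread and no test for any value below. The positive gate rests on the promoter of a gene that marks 2C-like cells, and in the fusion line the reporter also adds Zscan4c protein.

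Tdpoz proteins join a TRAF (MATH) domain, which binds substrates, to a POZ (BTB) domain, which binds cullin-3. Their best known relative is Spop, a substrate adaptor of the cullin-3 ubiquitin ligase. In the mouse the family is known from oocytes and early embryos, and 2C-like cells are embryonic stem cells that transiently express genes of the 2-cell embryo, such as the Zscan4 genes.

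The 10 genes lie between 93068823 and 94266784 of chromosome 3 (GRCm38, gene models of GENCODE M21), a span of 1198 kb. Gm4858 stands alone at the proximal end, 720.9 kb before Tdpoz4, and the other 9 fall within 470.4 kb. Tdpoz4 (93796398 to 93797510), Tdpoz3 (93826020 to 93827117), Gm9124 (94009931 to 94011022) and Gm9131 (94119979 to 94121067) are on the plus strand, as are Gm4858 (93068823 to 93075505), Gm5286 (94196714 to 94199802) and Gm4778 (94264036 to 94266784). Gm9113 (93873369 to 93874386), Gm9121 (93980064 to 93981134) and Gm4982 (94236702 to 94237799) are on the minus strand. The main listed transcript has a single exon in 9 of the 10, the exception being Gm5286. GENCODE types 5 of them as protein coding (Tdpoz3, Tdpoz4, Gm4858, Gm5286, Gm4778) and the other 5 as pseudogenes. RefSeq types 7 of the 10 as pseudogenes, Gm5286 and Gm4778 among them, and names 3 differently: Gm4858 as Tdpoz8, Gm5286 as Spopfm3 and Gm4778 as Spopfm1. The pseudogene label does not always mean a broken reading frame. The transcript of Gm4982 holds an open frame of 365 codons, the same length as that of Tdpoz3, and that of Gm9124 holds 361 codons. The frame that begins at the first ATG of Gm9131 stops after 227 codons. That of Gm4858, typed as protein coding by both, stops after 31 codons, and those of Gm9113 and Gm9121 meet no stop. This frame alone therefore does not tell coding from broken copies.

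The copies are shown by the earliest 120 bases that align without a gap in all 10 transcripts, because how alike they are bears on every value that follows. The sequences are from the GENCODE M21 transcripts (GRCm38, 5′ to 3′ along each gene), and capitals mark bases that differ from Tdpoz3.
Tdpoz3: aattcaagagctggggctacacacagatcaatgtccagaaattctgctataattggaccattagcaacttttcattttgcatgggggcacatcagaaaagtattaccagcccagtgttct
Gm4982: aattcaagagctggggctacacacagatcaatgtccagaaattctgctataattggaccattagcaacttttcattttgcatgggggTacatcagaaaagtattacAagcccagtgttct
Tdpoz4: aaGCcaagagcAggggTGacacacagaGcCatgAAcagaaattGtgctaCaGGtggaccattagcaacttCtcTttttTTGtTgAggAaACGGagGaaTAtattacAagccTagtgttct
Gm4858: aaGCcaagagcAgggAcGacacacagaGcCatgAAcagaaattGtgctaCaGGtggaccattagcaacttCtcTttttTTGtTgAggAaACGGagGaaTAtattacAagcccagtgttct
Gm9113: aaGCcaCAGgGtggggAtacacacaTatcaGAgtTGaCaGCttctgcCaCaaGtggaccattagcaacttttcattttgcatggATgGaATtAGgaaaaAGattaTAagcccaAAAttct
Gm9131: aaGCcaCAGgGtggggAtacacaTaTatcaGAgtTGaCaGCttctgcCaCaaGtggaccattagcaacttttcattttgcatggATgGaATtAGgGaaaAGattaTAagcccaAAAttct
Gm9124: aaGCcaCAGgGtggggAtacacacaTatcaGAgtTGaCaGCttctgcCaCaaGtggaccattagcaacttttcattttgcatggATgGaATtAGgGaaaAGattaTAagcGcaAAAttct
Gm5286: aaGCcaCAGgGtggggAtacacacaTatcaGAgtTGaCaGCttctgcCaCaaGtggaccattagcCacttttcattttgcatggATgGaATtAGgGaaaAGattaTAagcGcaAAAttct
Gm4778: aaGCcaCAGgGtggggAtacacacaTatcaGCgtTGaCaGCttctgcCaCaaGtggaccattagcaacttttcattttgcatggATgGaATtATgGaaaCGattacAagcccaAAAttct
Gm9121: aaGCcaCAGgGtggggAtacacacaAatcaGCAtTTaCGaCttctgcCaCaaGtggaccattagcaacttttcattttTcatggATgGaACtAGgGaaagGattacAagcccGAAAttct

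In this stretch, chr3:93826036-93826155 (plus strand) of Tdpoz3 and chr3:94237664-94237783 (minus strand) of Gm4982 differ at 2 bases. Tdpoz4 differs from Tdpoz3 at 30 bases and Gm4858 at 29, and most of their capitals fall at the same places. The other 6 differ from Tdpoz3 at 32 to 35 bases and share most of those changes with each other. Over the whole transcripts the same 3 branches appear. Tdpoz3 and Gm4982 differ at 11 of 1098 aligned bases (99.0% identical) and share an unbroken run of 365 identical bases. Tdpoz4 and Gm4858 are 94.7% identical. Gm9113, Gm9124, Gm9131 and Gm5286 are 98.1 to 99.8% identical to each other, and Gm9124 and Gm5286 differ at 2 of 1092 bases. Gm4778 and Gm9121 are 91.9 to 93.1% identical to those 4 and to each other. Identity between Tdpoz3 or Gm4982 and the other 8 is 76.4 to 82.6%.

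**Figure D1:**
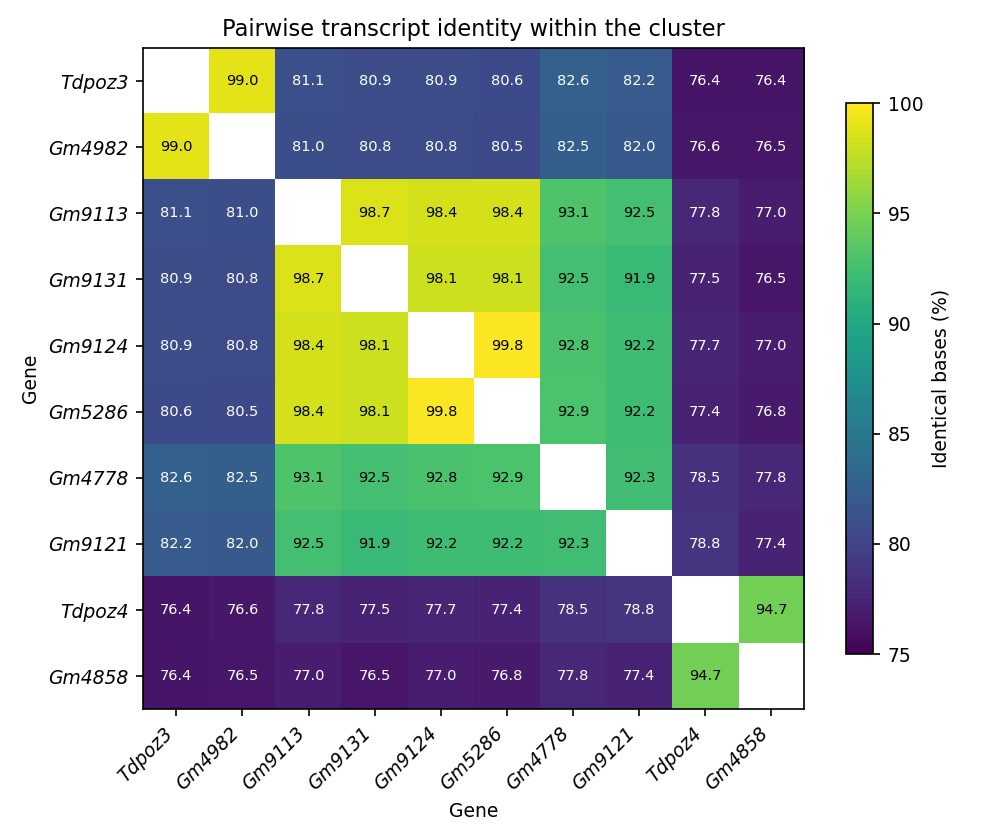
Identical bases (%, colour and number) for each pair of the 10 main listed transcripts, after multiple alignment of all 10 together. Tdpoz3 and Gm4982 form one block at 99.0%, Gm9113, Gm9131, Gm9124 and Gm5286 a second at 98.1 to 99.8%, and Tdpoz4 and Gm4858 another at 94.7%.

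Short reads from such copies may not be assignable to one gene. Of the 50-base words in the transcript of Gm4778, 91.7% occur in no other gene's transcript. The share is 78.0% for Gm4858, 58.8% for Tdpoz4, 42.0% for Gm9131, 33.8% for each of Tdpoz3 and Gm4982, 31.0% for Gm9121, 27.8% for Gm5286, 24.9% for Gm9113 and 5.27% for Gm9124. For Gm9121, 64.7% of its words are shared with Gm5542, a copy outside the 10. For Tdpoz4, 31.0% are shared with Gm5541, another such copy. Read length is unknown, and with 100-base words the shares are larger: 100% for Gm4778, 89.7% for Gm4858, 88.4% for Tdpoz4, 53.3% for each of Tdpoz3 and Gm4982, 55.2% for Gm9121, 54.2% for Gm9113, 63.5% for Gm9131, 38.4% for Gm5286 and 17.1% for Gm9124. At both lengths Gm4778, Gm4858 and Tdpoz4 have the largest shares, and the split within the Tdpoz3 and Gm9113 branches, and between Gm9121 and Gm5542, is uncertain. With 50-base words the split between Tdpoz4 and Gm5541 is uncertain as well. How the deposited values assigned shared reads was not tested. Values are therefore also given summed over each branch.

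The 4 libraries differ in how many genes they list at 0. The GFP- library of the GFP line lists 48.4% of all symbols at 0, against 19.5% in the GFP- library of the fusion line and 11.8% and 11.6% in the GFP+ libraries. Its correlation with the other libraries across all symbols is 0.82 to 0.85, and that among the other libraries is 0.94 to 0.96. Every comparison with this library carries that difference, and its part in the values of the Tdpoz genes was not tested. Read depth is unknown, since the values are TPM, a length-scaled share of the transcripts in a library. In bulk libraries, fewer expressing cells and less RNA per cell cannot be told apart.

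Summed over the 10 genes, the level was 2.16 TPM in GFP- and 68.0 TPM in GFP+ cells of the GFP line. In the fusion line the sums were 0.848 and 220 TPM. Both GFP+ libraries stood above both GFP- libraries for each of the 10 genes. GFP+ over GFP-, the sums stood 31.4 to 1 in the GFP line against 260 to 1 for the fusion line, and the GFP- sum was 3.18% and 0.385% of the GFP+ one. The sum of 5 Zscan4 genes, the family whose promoter drives the reporter, stood at 10.9 and 973 TPM in the GFP line, and at 9.73 and 1728 TPM in the fusion line. The fusion reporter also encodes Zscan4c, and whether its reads are counted in the Zscan4 values of the fusion line was not tested.

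**Figure D2:**
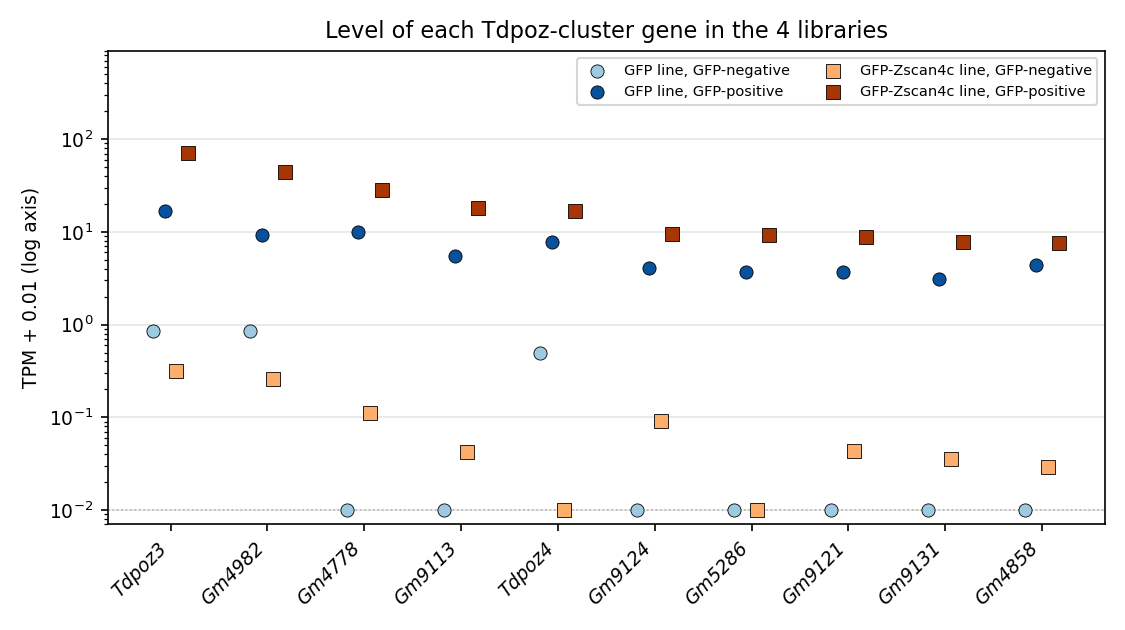
TPM (plus 0.01, log axis) of each of the 10 genes in the 4 libraries, 1 point per library, with points on the dotted line listed at 0. All GFP+ points lie at 3.11 TPM or above, and all GFP- points at 0.838 TPM or below.

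Tdpoz3, one of the named Tdpoz coding genes, had the highest level of the 10 in both GFP+ libraries. It was listed at 0.838 TPM in GFP- and 16.6 TPM in GFP+ cells of the GFP line, and at 0.302 and 70.3 TPM in those of the fusion line. Gm4982, its near-copy annotated as a pseudogene, was listed at 0.838 and 9.23 TPM, and at 0.251 and 44.3 TPM. The same 0.838 TPM stands for both genes in the GFP- library of the GFP line. The 2 genes together stood at 1.68 and 25.9 TPM, and at 0.553 and 115 TPM. They made up 38.1% of the sum over the 10 genes in GFP+ cells of the GFP line and 52.1% in those of the fusion line.

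Tdpoz4, the other named Tdpoz coding gene, was listed at 0.486 and 7.70 TPM in the GFP line, and at 0 and 16.7 TPM in the fusion line. Gm4858, the Tdpoz8 of RefSeq, was listed at 0 and 4.37 TPM, and at 0.0190 and 7.52 TPM. Among the 10 genes this branch was the lowest of the 3 in sum in GFP+ cells, at 12.1 TPM in the GFP line and 24.2 TPM in the fusion line. Gm5541, a copy outside the 10 that is 97.3% identical to Tdpoz4, is not in that sum, so the rank depends on the copies counted.

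In the branch of Gm9113, all 4 genes were listed at 0 in GFP- cells of the GFP line. Gm9113, a pseudogene in the annotation, was listed at 5.49 TPM in GFP+ cells of that line, and at 0.0323 and 18.0 TPM in the fusion line. Gm9124 reached 4.06 TPM in GFP+ cells of the GFP line, and was listed at 0.0814 and 9.45 TPM in the fusion line. Gm5286, which differs from Gm9124 at 2 bases, reached 3.65 TPM, and was listed at 0 and 9.16 TPM. Gm9131 was the lowest of the 10 in GFP+ cells of the GFP line, at 3.11 TPM, and was listed at 0.0258 and 7.69 TPM in the fusion line. The 4 together stood at 0 and 16.3 TPM, and at 0.140 and 44.3 TPM.

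Gm4778, the Spopfm1 of RefSeq and the gene with the largest share of words of its own, was listed at 0 and 10.1 TPM in the GFP line, and at 0.102 and 28.1 TPM in the fusion line. It has 2 listed transcripts. The single-exon one held 9.76 and 27.3 TPM in the GFP+ libraries, and the spliced one 0.307 and 0.789 TPM. Gm9121, a pseudogene in the annotation, was listed at 0 and 3.65 TPM, and at 0.0333 and 8.77 TPM.

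In the order of levels in GFP+ cells, Tdpoz3 came first in both lines and Gm4778 and Gm4982 took the next places, in opposite order in the 2 lines. With 1 library each, whether neighbours in that order differ cannot be said. Grouped by name, Tdpoz3 and Tdpoz4 summed to 24.3 TPM in GFP+ cells of the GFP line and to 87.0 TPM in those of the fusion line, which is 35.8% and 39.5% of the 10 genes' sum. The 8 Gm-named copies summed to 43.6 and 133 TPM. Grouped by annotation, the 5 coding genes summed to 42.4 and 132 TPM and the 5 pseudogenes to 25.5 and 88.2 TPM. As listed, most of the signal of the 10 genes stood under Gm names, which 8 of the 10 carry. Genes that GENCODE types as pseudogenes held 37.6% and 40.1% of it. Both groupings rest on the split of reads between Tdpoz3 and Gm4982, which is uncertain, and Gm4982 alone held 9.23 and 44.3 TPM. The second also depends on the annotation, since RefSeq types 7 of the 10 as pseudogenes.

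A gene was counted as higher or lower where TPM + 1 differed by 2-fold or more, among symbols at 5 TPM or more in either library. The values below are log2 ratios of TPM + 1, which understate the change of low genes. In the GFP line 5 of the 10 genes reached 5 TPM and all 5 were higher in GFP+ cells, beside 33.2% of 11062 symbols (7.48% were lower). In the fusion line 10 of 10 were higher, beside 8.23% of 10981 symbols (3.14% were lower). These counts follow from how the genes were chosen and nothing is read from them. The log2 ratios ran from 2.04 (Gm9131) to 3.47 (Gm4778) in the GFP line, where the median was 0.19 over symbols at 5 TPM or more and 0.12 over all 24190 symbols. In the fusion line they ran from 3.06 (Gm4858) to 5.77 (Tdpoz3), where those medians were 0.14 and 0.08.

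**Figure D3:**
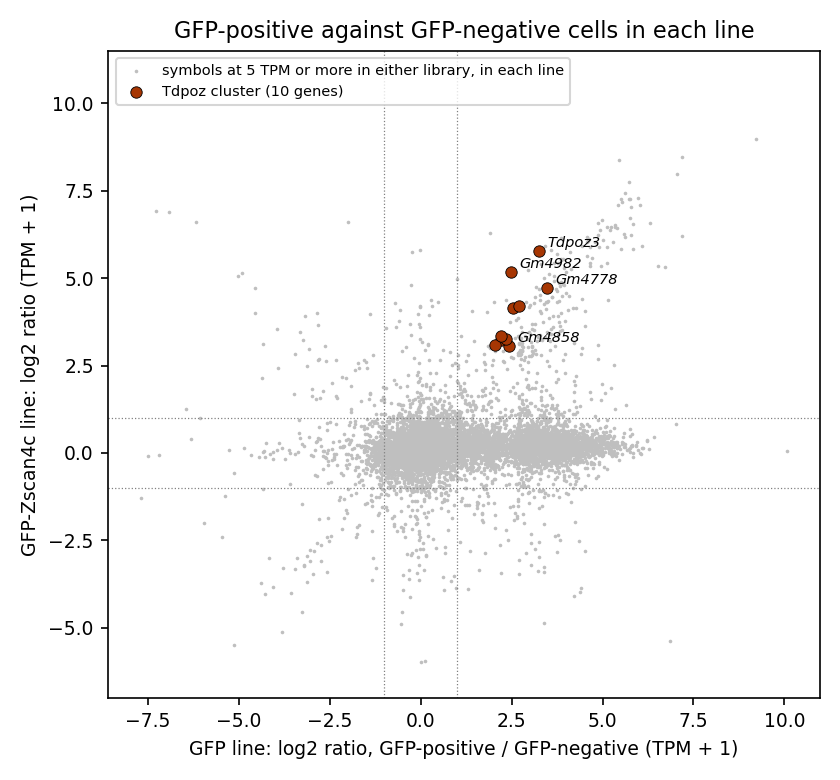
Log2 ratio of TPM + 1, GFP+ over GFP-, in the GFP line (x axis) and in the fusion line (y axis), for symbols at 5 TPM or more in either library of each line (grey) and for the 10 Tdpoz-cluster genes (brown). The 10 genes, which were chosen by these ratios, lie at 2.04 or above on the x axis and 3.06 or above on the y axis, and dotted lines mark 2-fold.

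Between the GFP+ libraries, each of the 10 genes was higher in the fusion line than in the GFP line. The ratio of TPM ran from 1.72 (Gm4858) to 4.80 (Gm4982), and that of the sums was 3.24. On the TPM + 1 scale 9 of 10 genes were 2-fold or more higher, all but Gm4858, beside 5.71% of 11126 symbols. Near-identical copies are not independent counts. Of the 9, Gm9121, Gm9124, Gm9131 and Gm5286 reached 5 TPM only in the fusion line, where they were higher, and so did Gm4858. Nothing is read from the count. With libraries scaled by the median ratio of all symbols, Tdpoz4 stood at 0.99 on the log2 scale and 8 of 10 were counted. Branch by branch, the ratio was 4.43 for Tdpoz3 with Gm4982, 2.72 for the Gm9113 branch, 2.79 for Gm4778, 2.40 for Gm9121 and 2.01 for Tdpoz4 with Gm4858. Of 13 other marker genes of 2C-like cells, 11 were higher in the fusion line, with a median TPM ratio of 2.46, so the ratios of most Tdpoz copies fall among those of the markers. The exceptions were Zscan4c itself, at 497 and 366 TPM, and Duxf3, at 7.72 and 7.36 TPM. Zscan4 genes are among the markers, and their values in the fusion line may include reads of the reporter, which was not tested. With 1 line of each kind, the fusion protein and the line cannot be told apart. How many of the sorted GFP+ cells were 2C-like was not measured here.

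**Figure D4:**
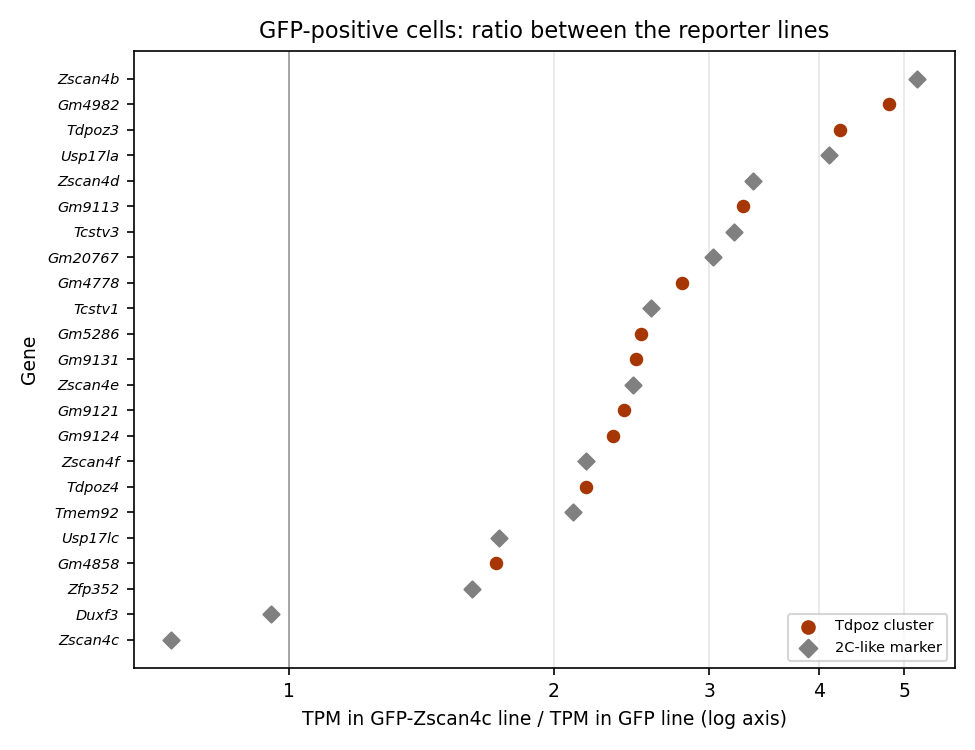
Ratio of TPM in GFP+ cells of the fusion line to TPM in those of the GFP line (log axis), 1 library each, for the 10 Tdpoz-cluster genes (brown circles) and 13 marker genes of 2C-like cells (grey diamonds). The Tdpoz genes run from 1.72 to 4.80 and interleave with the markers, of which Zscan4c and Duxf3 fall below 1.

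Between the GFP- libraries the order was the other way for the sum, at 2.16 TPM in the GFP line and 0.848 TPM in the fusion line. That difference lies in Tdpoz3, Tdpoz4 and Gm4982, since the other 7 were listed at 0 in the GFP line. Tdpoz4 and Gm5286 were the ones listed at 0 in GFP- cells of the fusion line. All 10 were under 1 TPM in both GFP- libraries.

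The cluster holds more copies than these 10. A search for sequence similarity to the 10, made after their values were seen, found 15 other listed copies at the locus. Their sum was 0.832 and 25.0 TPM in the GFP line, and 0.372 and 52.6 TPM in the fusion line. By any margin, all 15 were higher in GFP+ than GFP- cells in both lines, and higher in GFP+ cells of the fusion line than in those of the GFP line. At 5 TPM or more, 1 of 1 was 2-fold or more higher in the GFP line (33.2% of all symbols) and 4 of 4 in the fusion line (8.23%). Between the GFP+ libraries it was 3 of 4 (5.71%). All these copies passed the filter only through GFP+ cells, and those 3 only through GFP+ cells of the fusion line. Gm5541, at 5 TPM or more in both GFP+ libraries, was not 2-fold higher between them. Nothing is read from these counts. In GFP- cells of the GFP line 9 of the 15 were listed at 0. Some of the 15 share sequence with the 10 genes, so they are not independent counts. Their levels ran from 0.312 to 6.32 TPM and from 0.954 to 10.2 TPM in the GFP+ libraries, against 3.11 to 16.6 TPM and 7.52 to 70.3 TPM for the 10. The 10 held 73.1% and 80.7% of the sum over all 25 copies in these libraries.

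Where the choice of the 10 ends is visible in the next copies down. Gm5541, a pseudogene 97.3% identical to Tdpoz4, was listed at 0 and 6.32 TPM, and at 0.109 and 10.2 TPM, which puts it above Gm9124, Gm5286, Gm9121, Gm4858 and Gm9131 by the mean of the GFP+ libraries. Below the 10 came Gm5542, at 2.69 and 6.51 TPM in GFP+ cells, Gm9117, at 2.26 and 5.95 TPM, and Gm9125, at 1.75 and 5.50 TPM. Of the named family genes, Tdpoz1 reached 1.15 and 3.90 TPM, Tdpoz2 0.312 and 0.954 TPM, and Tdpoz5 0.906 and 1.32 TPM. The transcripts of Tdpoz5 and Gm10697 do not differ over 1023 bases and carry the same values in every library. Reads of the one cannot be told from reads of the other.

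**Figure D5:**
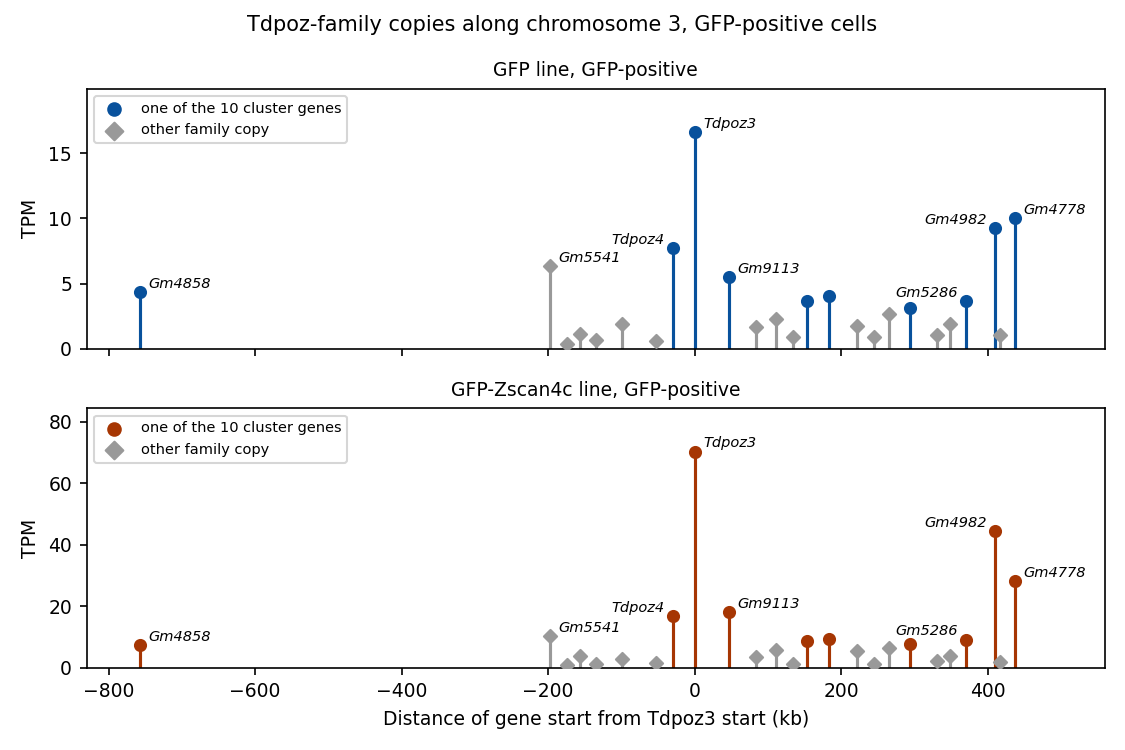
TPM in GFP+ cells of the GFP line (top) and of the fusion line (bottom) for each family copy with a listed transcript, by distance of its start from that of Tdpoz3 (kb). Circles are the 10 genes described here and grey diamonds the 15 other copies, which reach 6.32 TPM in the top and 10.2 TPM in the bottom panel.

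The genes around the cluster were compared as a local background. In a window around the cluster, 69 symbols outside the family had a listed transcript. Of those at 5 TPM in the fusion line, 2 of 21 were higher (8.23% of all symbols tested) and 0 lower (3.14%), with a median log2 ratio of 0.27. In the GFP line 7 of 24 were higher (33.2% of all symbols tested) and 4 lower (7.48%), with a median of -0.17. The 2 higher in the fusion line, named after their values were seen, were Tuft1, at 0.279 and 12.4 TPM, and Cgn, at 1.10 and 6.64 TPM. Psmb4, a proteasome subunit gene of the same window, was listed at 235 and 211 TPM, and at 200 and 221 TPM. Between the GFP+ libraries 1 of 21 neighbours was higher (5.71% of all symbols tested) and 1 lower (451 of 11126 symbols).

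The promoters of the family can be shown for the copies whose transcript start lies apart from the coding start. RefSeq promoter windows were held for 8 starts of the family. Of the 10 genes, Gm4858 has 2 windows and Tdpoz4 has 1. The start used for Tdpoz4 is its coding start. The listed transcript of Gm4858 begins at 93073537, inside its second window (93073271 to 93073570), which held no match to any motif searched. The window shown for Gm4858 lies before its first exon, upstream of that transcript. The windows before the first exons of Gm4858, Tdpoz1, Gm9125 and Gm10696, at their RefSeq starts, share a run of 26 bases, in capitals. The stretches printed are chr3:93068694-93068822 (Gm4858, Tdpoz8, plus strand), chr3:93676284-93676439 (Tdpoz1, minus strand), chr3:94054886-94055014 (Gm9125, Tdpoz9, minus strand) and chr3:94178194-94178324 (Gm10696, Spopfm2, minus strand). The GENCODE model of Tdpoz1 begins at 93676310, so the end of its printed stretch lies inside that model. The part from 20 bases before that run to the start is printed 5′ to 3′ on the gene's strand (RefSeq, GRCm38), since it is the stretch these starts have in common.
Gm4858: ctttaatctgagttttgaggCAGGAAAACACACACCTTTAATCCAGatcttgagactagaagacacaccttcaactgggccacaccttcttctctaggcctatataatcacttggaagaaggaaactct
Tdpoz1: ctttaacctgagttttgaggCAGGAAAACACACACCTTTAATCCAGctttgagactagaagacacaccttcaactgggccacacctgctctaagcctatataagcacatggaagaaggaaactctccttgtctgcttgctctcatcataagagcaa
Gm9125: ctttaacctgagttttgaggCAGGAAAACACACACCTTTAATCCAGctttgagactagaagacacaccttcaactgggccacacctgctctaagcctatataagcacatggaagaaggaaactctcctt
Gm10696: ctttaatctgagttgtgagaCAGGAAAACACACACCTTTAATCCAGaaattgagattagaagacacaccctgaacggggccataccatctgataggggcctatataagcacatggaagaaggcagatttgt

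The run begins 109, 136, 109 and 111 bases before the start, in the order printed, and was found in 4 of 32851 RefSeq windows, none outside the family. The windows were compared after the values had been seen, and the match is a description of copies of one family, not of a binding site. The motif TATATAA, on either strand, stands 29, 60, 33 and 31 bases before the start, in the order printed, and is held by 3.24% of all windows. These distances are from the RefSeq starts. For Tdpoz1, with 136 and 60 bases, that start lies downstream of the GENCODE one, from which both distances are shorter. No difference in spacing between the copies is read from them. GGATTA, the core of Obox-type homeobox motifs, is held on the opposite strand inside the run, and by 7.06% of all windows. Neither GATTNAATC, a core of the Dux motif (0.268% of all windows), nor TGCACAC, the Zscan4 motif (4.40%), nor TGTGTGTG (4.09%), TATAAA (13.6%) or the GC box GGGCGG (35.7%) was found in the family's windows. CCAAT, held by 37.4% of all windows, was found in the first window of Gm4858 and in those of Tdpoz1, Tdpoz5, Gm9125 and Gm10697, and not in those of Gm10696 and Tdpoz4. Each motif was searched on both strands. An absence says only that these letters are not in these windows. The shared run does hold ACACACAC, an alternating stretch of the same bases in the other register. The search for TGTGTGTG did not cover that register, and how many of all windows hold it was not tested.

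Genes of the pathway the Tdpoz proteins would act in were given from lists of the core of the cullin-3 ligase, of its other BTB adaptors and of TRAF genes. Of 13 core genes at 5 TPM in the fusion line, 0 were higher and 0 lower, with a median log2 ratio of 0.18. Of 25 other BTB adaptors, 2 were higher and 0 lower, with a median of 0.28. Klhl13 was listed at 12.7 and 29.2 TPM, and Klhl20, named after its values were seen, at 2.79 and 8.41 TPM. Of 3 TRAF genes none was higher or lower. No list had a share above the background of 8.23% in that line.

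In the GFP line, where 33.2% of all symbols tested were higher and 7.48% lower, 3 of 13 core genes were higher and 1 lower, 12 of 22 other BTB adaptors were higher and 2 of 4 TRAF genes (Traf2 and Traf3) were higher. For 8 of the 12 adaptors, 2 of the 4 core genes and both TRAF genes the lower value was a 0 in the library that lists 48.4% of symbols at 0. Cul3, the scaffold of the ligase, is one of them and was named after its values were seen. It was listed at 0 and 32.5 TPM in the GFP line, and at 22.9 and 38.7 TPM in the fusion line. Spop, the relative outside the cluster that the similarity search found among listed genes, was listed at 0 and 10.3 TPM, and at 14.3 and 8.66 TPM. Spopl, the paralog of Spop, was listed at 0.798 and 4.68 TPM, and at 8.64 and 2.80 TPM, so it was 2-fold or more lower in GFP+ cells of the fusion line. Neither Spop nor Spopl kept its direction across the lines, and the 0 of Spop is in the library that lists 48.4% of symbols at 0. Gm9127, also on the list of relatives, was listed at 0 and 0.0348 TPM, and at 0.0937 and 0.0180 TPM. The 10 Tdpoz genes were chosen by their direction, so no contrast with them is drawn.

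Marker genes of other cells were checked because the family is known from oocytes. Of 7 oocyte genes 2 were listed: Zp3, a zona pellucida gene, at 0, 4.36, 2.13 and 2.14 TPM (GFP line negative and positive, then fusion line negative and positive), and Gdf9 at 0.333 TPM in GFP+ cells of the GFP line and 0 elsewhere. Primitive endoderm genes (3 of 6 listed) reached at most 2.13 TPM: Gata4 was listed at 0 in GFP- cells of both lines and at 1.64 and 2.13 TPM in GFP+ cells. Of trophectoderm genes (4 of 6 listed), Krt8 reached 8.51 TPM in GFP+ cells of the GFP line and was listed at 0 in the other 3 libraries. Eomes, a trophectoderm transcription factor gene, was listed at 0 in GFP- cells of both lines and at 2.64 and 3.42 TPM in GFP+ cells, and Elf5 and Krt7 stayed at 0.0452 TPM or below. Of fibroblast genes (3 of 5 listed), Thy1 was at 11.9 and 7.27 TPM in GFP+ cells and listed at 0 in GFP- cells of both lines, with Col1a1 and Col1a2 at 0.114 TPM or below. Their part in the Tdpoz values was not tested. Of 8 pluripotency genes in the fusion line, 1 (Klf4) was higher and 0 lower, with a median log2 ratio of -0.01. In the GFP line 0 were higher and 2 lower (Klf4 at -1.42 and Tdgf1 at -1.20 on the log2 scale), with a median of -0.37.

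The symbols whose pattern over the 4 libraries lay nearest to the sum of the 10 genes were taken by Euclidean distance on centred log2(TPM + 1) values. The nearest 5 of 10047 symbols compared were Gm4301 (0.532), Usp17lb (0.568), Gm8711 (0.573), B020031M17Rik (0.599) and Gm8994 (0.607), against a median distance of 5.67. Gm4301 was listed at 1.53 and 75.7 TPM, and at 0.856 and 153 TPM. Usp17lb, a member of the Usp17 deubiquitinase family, was listed at 0 and 30.7 TPM, and at 0 and 100 TPM. With 4 libraries this is a description of level, and says nothing of shared function or control.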

How the data were processed

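The deposited files give TPM per annotated transcript, 1 file per library. The authors processed reads with CASAVA, HISAT2 2.1.0 and StringTie 1.3.5 on GRCm38, per the submitters' processing notes. For options, read length and annotation release, the sources used here give nothing. TPM was summed by symbol over 58853 listed transcripts. The 10 genes, lists and rules were chosen with earlier results of these data known. The planned rule named up to 4 genes per list by mean TPM, all listed relatives, and the 5 nearest symbols. Not all of these are given above, and some genes, such as Cul3, Klhl20, Tuft1 and Cgn, were named after their values were seen. Log2 ratios used TPM + 1, and a 2-fold difference was counted at 5 TPM or more. With 1 library per population no test was run, and the calling step was checked on simulated data. Transcripts came from GENCODE M21 (58388 listed transcripts matched), relatives from blastn 2.17.0 (500 aligned bases or more), alignments from MAFFT 7.526 and promoters from RefSeq (GRCm38). Python 3.11.15, numpy 2.4.6, pandas 2.3.3 and matplotlib 3.10.9 were used. Alternatives were other pseudocounts, scalings, filters and the highest transcript per symbol. Listed transcripts held 66.6 to 69.1% of the full TPM scale.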

Additional observations from a re-analysis of the deposited data

Results flagged for a closer look

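Klf4, a pluripotency transcription factor gene read as a marker of the sorted cells, moved in opposite directions in the 2 lines. Its log2 ratio of TPM + 1, GFP-positive over GFP-negative, was -1.42 in the GFP line (187 and 69.5 TPM) and 1.54 in the GFP-Zscan4c line (40.1 and 118 TPM). The difference between the lines was not tested, since each population is 1 library.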

How the results depend on the processing

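Of 36 alternatives over 8 results, 30 left the value within 1.5-fold of the reported one, 6 moved it further and 0 reversed it. The 6 concern the GFP line's count of higher Tdpoz genes and the summed log2 ratios. The count was 5 as reported, 9 with listed TPM rescaled to a full TPM total, 10 with no filter on low values and 3 among symbols above 0 in both libraries. The log2 ratio of summed TPM + 1, GFP-positive over GFP-negative, was 4.45 in the GFP line and 3.35 with a pseudocount of 5 TPM. In the GFP-Zscan4c line it was 6.90, 7.86 with a pseudocount of 0.1 TPM and 5.27 with 5 TPM. Median-ratio scaling moved the median of symbols at 5 TPM or more in the GFP-Zscan4c line from 0.14 to -0.01, and the share of higher among counted symbols from 72.4% to 63.3%. No paired analysis was possible because the populations share no more than 1 replicate number; a fit blocked by line, which would take 2 different transgenes as replicates, was not run. With 1 library per population no replicate could be left out. Depth is unknown, so no limit can be set on values listed at 0.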
